A study of Homo sapiens with 16 samples.

Results

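The genes described here are 45 genes of the extracellular matrix and the basement membrane, out of 26485 gene symbols counted in SW480 and SW620 cells. They were taken by symbol from a list of laminins, collagens, glycoproteins, proteoglycans and cross-linking enzymes, and all 45 were present in the count files. By role they comprised 9 laminin chains, 4 other basement membrane glycoproteins and proteoglycans and 8 network and basement membrane collagens. Another 6 were fibrillar, fibril-associated or beaded-filament collagens, and 7 were interstitial or matricellular glycoproteins. The rest were 6 elastic fibre and microfibril proteins, 3 proteoglycans and 2 cross-linking enzymes.

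The basement membrane is the sheet on which epithelial cells sit. Laminins, each a trimer of an alpha, a beta and a gamma chain, form one of its networks and type IV collagen forms the other, and nidogen, perlecan and agrin join the networks to each other and to cells. Interstitial matrix lies beyond that sheet and is made largely by fibroblasts, but carcinoma cells also express some of its collagens, fibronectin and tenascin. In a colon tumour, Wnt signalling acts through beta-catenin bound to the TCF and LEF factors.

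SW480 and SW620 are human colon cancer lines with high Wnt signalling. Polyadenylated RNA was sequenced from 4 groups of 4 libraries: SW480 dnLEF1, SW480 GFP, SW620 dnLEF1 and SW620 GFP. dnLEF1 is a LEF1 without the part that binds beta-catenin and served to lower Wnt output, and GFP was the mock control. All cells were at passage 6, grown in DMEM as monolayers and detached with trypsin before RNA extraction. The labels do not give the promoter of the constructs, whether lines were clones, or whether libraries came from separate cultures, so p-values measure the spread between these libraries, which may be technical. In each SW480 group, replicates 2 and 3 were the closest pair. Their chi-square per degree of freedom over genes was 1.99 in GFP and 2.33 in dnLEF1. Other pairs had 6.78 to 14.5 in SW480 GFP and 13.3 to 22.2 in SW480 dnLEF1. The SW620 pairs were uneven as well. In SW620 GFP, pairs with replicate 1 had 12.3 to 17.9 and the others 4.88 to 7.54. In SW620 dnLEF1, replicates 3 and 4 had 4.37 and the other pairs 9.54 to 15.7. The tests treat all libraries of a group as separate.

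Gene counts ran from 17181204 to 26153506 per library. LEF1 was called higher with dnLEF1 in both lines, by 2.26 ± 0.12 on the log2 scale (± SE) in SW480 and by 2.79 ± 0.12 in SW620 (edgeR adjusted p = 2.37e-09 and 7.94e-09). Its counts do not separate the construct from the cells' own gene. AXIN2, a standard Wnt target, was at 69.8 ± 4.49 CPM (gene counts scaled to library size, SD, n = 4) in SW480 dnLEF1 and 550 ± 11.2 CPM in SW480 GFP, and at 320 ± 11.2 CPM in SW620 dnLEF1 and 333 ± 14.6 CPM in SW620 GFP. edgeR called AXIN2 lower in SW480 (-2.98 ± 0.07 on the log2 scale, adjusted p = 1.22e-12). It did not call it in SW620, where the value was -0.06 ± 0.05 (adjusted p = 0.607). LEF1 itself stood at 246 ± 49.1 CPM in SW480 dnLEF1 and 51.7 ± 1.89 CPM in SW480 GFP. In SW620 it stood at 23.3 ± 2.35 CPM in dnLEF1, below the SW480 GFP level, and at 3.36 ± 0.501 CPM in GFP. The part of this gap in the line differences below was not tested. In SW620 GFP replicate 3, 50.5% of all reads were in lines that name no gene, against 20% to 24.3% in the other 15 libraries. Colon epithelium markers, mostly KRT8 and KRT18, summed to 7121 to 8545 CPM in SW480 dnLEF1 and 10743 to 12514 in SW480 GFP, with no overlap, and to 8562 to 10874 in SW620 dnLEF1 and 9968 to 12278 in SW620 GFP. Of 8 of these markers tested in SW480, EPCAM, KRT8, KRT18, KRT19, VIL1 and CDX2 were called lower and CDH1 and ELF3 higher, with a median log2 fold change of -0.57. In SW620, 2 of 8 were called, CDH1 and VIL1, both lower. Fibroblast markers summed to 23 to 53.5 CPM in SW480 dnLEF1, 14 to 23 in SW480 GFP, 2.72 to 3.62 in SW620 dnLEF1 and 4.53 to 6.44 in SW620 GFP. DCN, a defining fibroblast proteoglycan, had no count in either SW480 group but had counts in SW620, and COL1A1 and ACTA2 made up most of that sum in SW480. Of 3 fibroblast markers tested in SW480, COL1A1 was called higher and PDGFRB lower, with a median log2 fold change of -0.05. In SW620, 2 were tested and COL1A1 was called lower. Endothelial markers summed to 2.71 to 4.59 CPM in SW480 dnLEF1 and at most 1.52 in SW480 GFP, and blood cell markers to 5.12 to 7.22 and 3.04 to 5.19 in the same groups. In SW620 endothelial markers summed to 1.1 to 2.01 in dnLEF1 and 1.03 to 1.33 in GFP, and blood cell markers to 3.17 to 4.44 in dnLEF1 and 1.33 to 2.77 in GFP. The 2 endothelial markers tested in SW480, VWF and ROBO4, were called higher, with a median log2 fold change of 1.54. The only endothelial marker tested in SW620 was not called. Of the blood cell markers only LYZ was called, as higher in both lines. RNA quality and stress genes summed to 1262 to 2156 CPM in SW480 dnLEF1 and 1424 to 1822 in SW480 GFP, and to 1025 to 1850 in SW620 dnLEF1 and 711 to 2308 in SW620 GFP. The part of these lists in the results below was not tested.

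In SW480, dnLEF1 cells had more RNA of TNC, FBLN1, COL7A1, LOXL2, LTBP1 and LAMB1, and less of LUM, COL4A2 and LAMB3 than GFP cells. Of the 45 members, 34 passed the filter on low counts in SW480, and 18 of these were called higher and 6 lower (edgeR quasi-likelihood test, Benjamini-Hochberg adjusted p below 0.05). That is 70.6% of the members tested, against 48.5% of all 14426 genes tested, of which 24.2% were called higher and 24.4% lower. In SW620, 24 members were tested, of which 3 were called higher and 4 lower, or 29.2% in all. Of all 13336 genes tested there, 8.46% were called, 6.03% as higher and 2.43% as lower. The median log2 fold change of the members tested was 0.34 in SW480 and -0.0012 in SW620, beside -0.0013 and -0.0044 over all genes tested. Members that passed the filter only through the group in which they were high had to differ, so these counts describe the members and carry no test. This held for LAMA4, COL17A1, COL5A1, COL12A1 and LUM in SW480 and for LOX in SW620. The adjusted p given below for these members in these lines is description only.

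**Figure D1:**
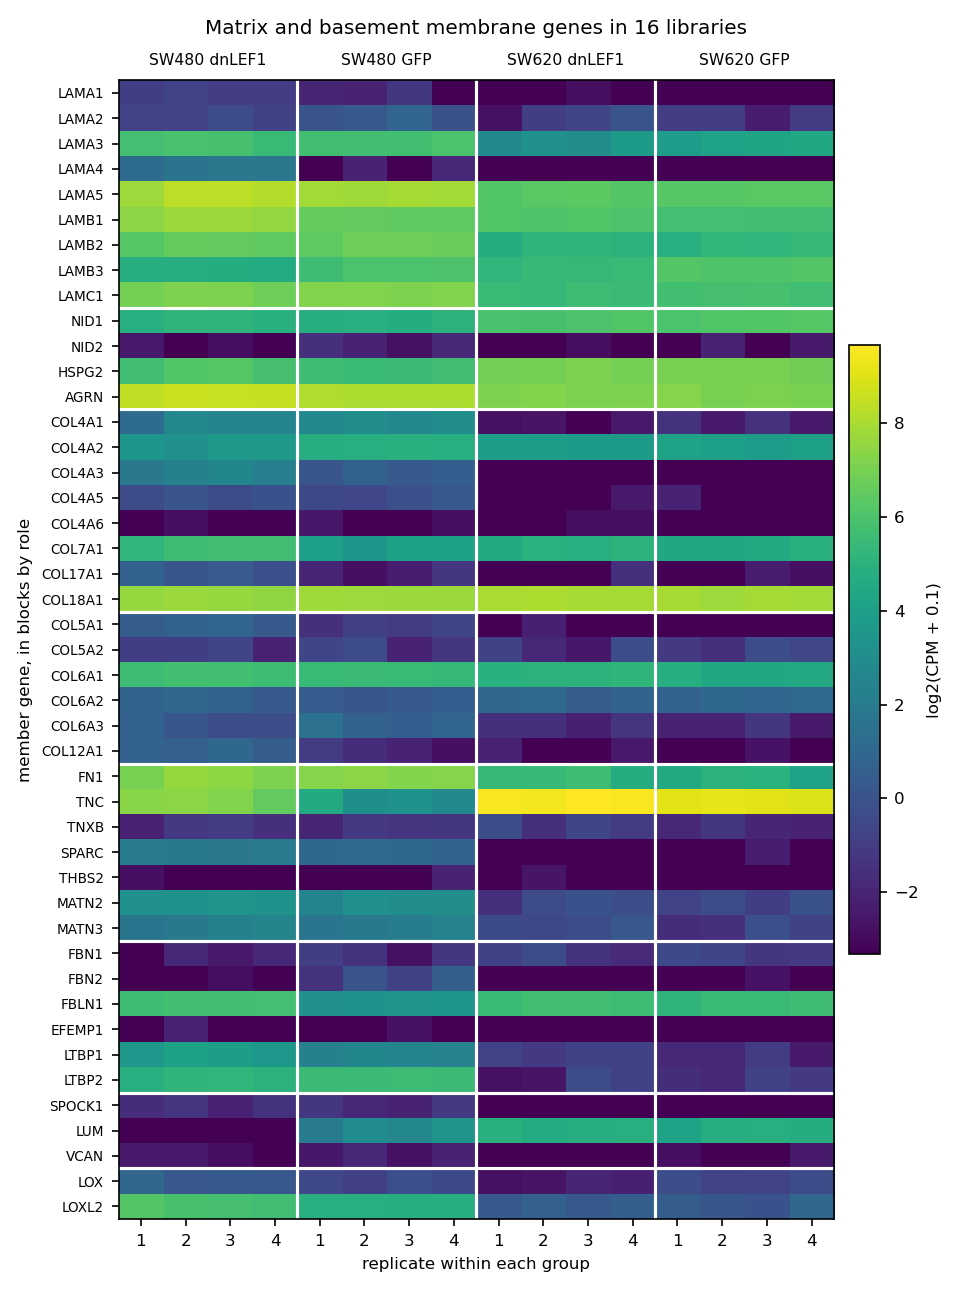
Level of each of the 45 members in each of the 16 libraries, as log2(CPM + 0.1), with members in rows, in blocks by role, and libraries in columns, in blocks by group. TNC is brightest in the SW620 libraries, and LUM is at the bottom of the scale in all 4 SW480 dnLEF1 libraries.

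COL6A1, LAMB1 and TNC were called higher in both lines, and LAMB3 was called lower in both. LOX was called higher in SW480 and lower in SW620. Of the members called higher in SW480, 7 were tested and not called in SW620 and 7 others were below the filter there. LAMA3 and LAMC1 were called, as lower, in SW620 and were not called in SW480. Whether dnLEF1 acted differently in SW620 and SW480 was itself tested, as the SW620 log2 fold change minus that of SW480, in 1 fit of all 16 libraries. It was called for 14 of 36 members tested, or 38.9%, 4 with a higher and 10 with a lower value in SW620. Of all 14926 genes tested, 28.5% were called, 16.2% as higher and 12.3% as lower. The 36 included members such as LAMA4 and COL4A3, which had no count in SW620 and gave no usable difference. Single values of that difference are given below only for the 22 members that were tested in each line.

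**Figure D2:**
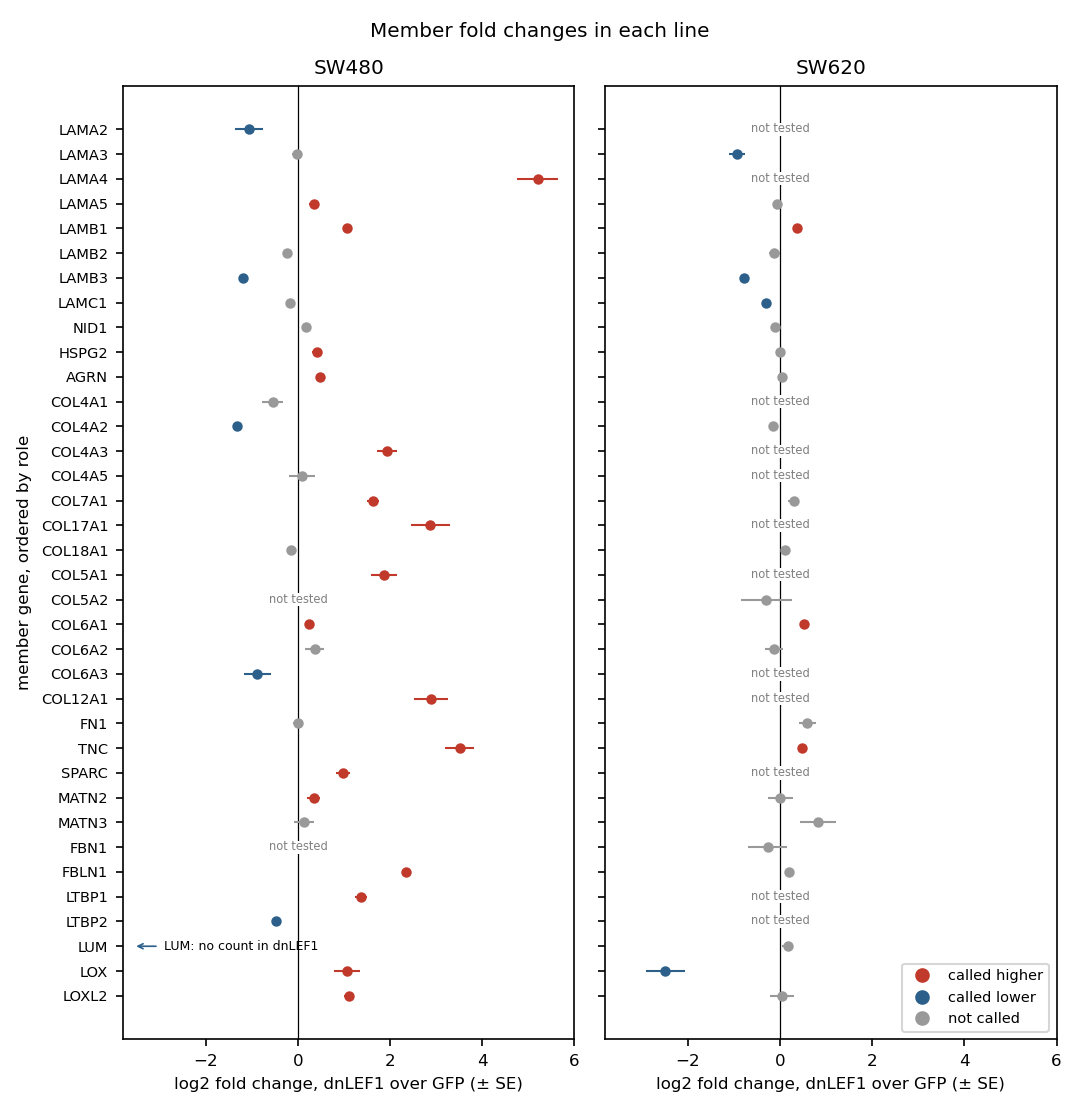
Log2 fold change of dnLEF1 over GFP (± SE) for each member tested in at least 1 line, in SW480 on the left and SW620 on the right, with called members in colour. LUM in SW480 is drawn as an arrow because it had no count in dnLEF1. Most coloured points in SW480 lie right of 0, while most points in SW620 are grey.

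Among the laminin alpha chains, LAMA5, the main alpha chain of adult epithelial basement membranes, was the most abundant. LAMA5 stood at 218, 326, 337 and 287 CPM in SW480 dnLEF1 libraries, against 236, 222, 240 and 229 CPM in SW480 GFP libraries. The dnLEF1 library at 218 CPM lay below every GFP library, so the groups overlapped although LAMA5 was called higher by 0.34 ± 0.11 on the log2 scale (edgeR adjusted p = 0.0177). The call was lost when SW480 GFP replicate 2, dnLEF1 replicate 2 or dnLEF1 replicate 3 was left out, with adjusted p up to 0.0565. In SW620, LAMA5 was at 76.5 ± 6.09 CPM in dnLEF1 and 79.9 ± 2.17 CPM in GFP and was not called.

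LAMA4, an alpha chain best known from blood vessels and muscle, had nearly all of its counts in SW480 dnLEF1. Its level there was 2.19, 3.09, 3.41 and 3.43 CPM, against 0, 0.134, 0 and 0.182 CPM in SW480 GFP, or 278 counts against 7. LAMA4 had no count in any SW620 library. The SW480 log2 fold change was 5.20 ± 0.45 (edgeR adjusted p = 3.33e-07), and it was 5.95 without SW480 GFP replicate 4, within a range of 4.75 to 5.95 over 14 alternatives. LAMA4 passed the filter only through dnLEF1 and so had to differ. LAMA2, the alpha chain of muscle and nerve basement membranes, was at 0.525, 0.508, 0.715 and 0.463 CPM in SW480 dnLEF1 and at 0.948, 1.16, 1.76 and 0.821 CPM in SW480 GFP. The groups did not overlap, and the log2 fold change was -1.06 ± 0.30 (edgeR adjusted p = 0.00952). In SW620, LAMA2 was below the filter, at 45 counts in dnLEF1 and 29 in GFP. LAMA1, an alpha chain of embryonic basement membranes, was below the filter everywhere, with 41 counts in SW480 dnLEF1 and 14 in SW480 GFP.

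The chains LAMA3 and LAMB3 belong to the laminin that anchors epithelial cells through hemidesmosomes. In SW620, both were lower with dnLEF1. LAMA3 was at 7.27, 9.33, 8.53 and 13.3 CPM in SW620 dnLEF1, against 14.2, 18.0, 19.3 and 22.2 CPM in SW620 GFP. No dnLEF1 library reached the lowest GFP library, and the log2 fold change was -0.93 ± 0.17 (edgeR adjusted p = 0.0026). LAMB3 was at 37.1, 42.0, 40.4 and 42.8 CPM in SW620 dnLEF1 and at 72.2, 66.9, 67.9 and 71.8 CPM in SW620 GFP. The groups were far apart, with a log2 fold change of -0.78 ± 0.06 (edgeR adjusted p = 3.00e-06).

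In SW480, LAMB3 was called lower and LAMA3 was not called. LAMB3 was at 27.5, 27.2, 26.4 and 25.1 CPM in SW480 dnLEF1, against 50.2, 64.3, 62.5 and 66.1 CPM in SW480 GFP. Every dnLEF1 library was lower, and LAMB3 fell 2.28-fold, a log2 fold change of -1.19 ± 0.09 (edgeR adjusted p = 5.43e-08). LAMA3 was at 55.7, 60.4, 59.4 and 43.8 CPM in SW480 dnLEF1 and at 53.8, 53.2, 52.5 and 64.1 CPM in SW480 GFP. Those groups overlapped, and the log2 fold change of -0.02 ± 0.10 was not called. The dnLEF1 effect differed between SW620 and SW480 for LAMA3 (-0.91 ± 0.21, edgeR adjusted p = 0.00245) and for LAMB3 (0.41 ± 0.11, adjusted p = 0.00657).

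The start regions of LAMA3 and LAMB3 are shown because they were the only ones among the members with a promoter entry that had a match to the AP-1 word. The windows are those of RefSeq on GRCh38.p14, from 250 bases before to 50 bases after a start, and 36 of the 45 members had one. The word was TGANTCA, which reads the same on both strands as a pattern. LAMA3 had 2 matches, TGACTCA at -125 and TGAGTCA at -69 from the start, in chr18:23872770-23873069 on the plus strand. This start lies inside the annotated gene, which runs from 23689453 to 23956222, and no window covered the gene's first base. The counts do not separate transcripts by start. LAMB3 had 1 match, at -67, in the window chr1:209651325-209651624 on the minus strand, and none in its other windows. Capitals mark the matches.
LAMA3: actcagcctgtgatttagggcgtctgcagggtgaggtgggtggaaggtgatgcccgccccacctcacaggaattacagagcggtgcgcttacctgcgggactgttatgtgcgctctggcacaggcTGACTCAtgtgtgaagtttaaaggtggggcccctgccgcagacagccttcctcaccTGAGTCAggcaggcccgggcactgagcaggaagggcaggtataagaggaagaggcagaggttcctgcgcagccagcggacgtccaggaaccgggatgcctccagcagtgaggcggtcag
LAMB3: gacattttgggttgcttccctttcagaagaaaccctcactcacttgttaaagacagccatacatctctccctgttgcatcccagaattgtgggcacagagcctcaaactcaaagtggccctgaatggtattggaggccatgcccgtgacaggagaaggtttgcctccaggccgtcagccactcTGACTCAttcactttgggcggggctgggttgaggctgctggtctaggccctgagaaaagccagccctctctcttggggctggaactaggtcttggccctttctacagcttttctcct

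The AP-1 word was present in 7.7% of all 35116 RefSeq promoter windows of this length and in 5.6% of the 36 members. The first share counts windows, while the member share counts genes with a match in any of their windows, so the units differ. The same holds for the next shares. The TCF/LEF words, CTTTG followed by AT, AA, TT or TA and searched on both strands, were present in 13.8% of all windows and in 5.6% of members, namely COL17A1 and LAMA2. The windows of LAMB1, TNC, COL4A1 and COL4A2 held neither. A match is a run of letters and no evidence of binding. AGRN, COL5A2, COL6A1, EFEMP1, LAMA1, LOXL2, LUM, MATN2 and SPOCK1 had no entry.

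LAMB1, the beta chain of most widespread laminins, was higher with dnLEF1 in both lines. It was at 170, 206, 206 and 188 CPM in SW480 dnLEF1, against 95.3, 93.7, 90.6 and 87.9 CPM in SW480 GFP. It was at 70.2, 67.0, 70.4 and 65.9 CPM in SW620 dnLEF1, against 54.7, 55.1, 50.6 and 51.8 CPM in SW620 GFP. In neither line did a dnLEF1 library reach down to a GFP library. The log2 fold change was 1.07 ± 0.07 in SW480 and 0.37 ± 0.06 in SW620 (edgeR adjusted p = 2.13e-08 and 0.000844), and the line difference (SW620 minus SW480) was -0.70 ± 0.09 (adjusted p = 3.59e-06).

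In SW620 the genes around LAMB1 were higher too. The median log2 fold change of the 24 nearest measured genes, 12 on each side of LAMB1 (7:107923799-108003213 on hg38), was 0.39 in SW620, and 23 of the 24 were higher in dnLEF1. In SW480 the same neighbourhood had a median of -0.17, with 9 of 24 higher, beside 1.07 for LAMB1 itself. The part of the neighbourhood in the SW620 value was not tested. LAMB3 had neighbours at medians of -0.09 in SW480 and -0.04 in SW620.

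LAMB2 and LAMC1, chains of many basement membrane laminins, had small differences. LAMB2 was at 89.2 ± 9.29 CPM in SW480 dnLEF1 and 105 ± 12.4 CPM in SW480 GFP, and at 33.0 ± 4.87 CPM in SW620 dnLEF1 and 36.1 ± 5.20 CPM in SW620 GFP. It was called in neither line, although in SW480 it was called lower in 3 of 14 alternatives, at adjusted p = 0.00709 without SW480 GFP replicate 1, 0.0108 with the replicate block and 0.0437 without the filter, with a highest adjusted p of 0.165. LAMC1 was at 44.3, 40.0, 48.7 and 46.3 CPM in SW620 dnLEF1, against 52.2, 57.4, 58.8 and 52.0 CPM in SW620 GFP. These groups did not overlap, and LAMC1 was called lower (log2 fold change -0.30 ± 0.07, edgeR adjusted p = 0.0211). The LAMC1 call was lost when SW620 GFP replicate 2, GFP replicate 3, dnLEF1 replicate 1 or dnLEF1 replicate 2 was left out, with adjusted p up to 0.0811. In SW480, LAMC1 was at 129 ± 14.5 CPM in dnLEF1 and 146 ± 4.54 CPM in GFP and was not called, except in the fit of all 16 libraries and without SW480 dnLEF1 replicate 2 (adjusted p from 0.0297 to 0.183 over 14 alternatives).

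Per kilobase of exon, the make-up of the beta chains differed between dnLEF1 and GFP in both lines, described without a test. LAMB1 made up 35.6% ± 0.589 of summed beta-chain CPM per kb in SW480 dnLEF1 and 15% ± 2 in SW480 GFP, while LAMB3 made up 19.8% ± 1.95 and 39.2% ± 1.39 in the same groups (SD, n = 4). In SW620, LAMB1 held 21.4% ± 1.99 in dnLEF1 and 12.4% ± 0.703 in GFP, and LAMB3 held 50.8% ± 1.34 in dnLEF1 and 64.9% ± 2.63 in GFP. LAMB2 held 44.6% in SW480 dnLEF1 and 45.8% in SW480 GFP, but 31% and 39.8% in these groups with the longest transcript as the length. The union of annotated LAMB1 exons, 18592 bases, is much longer than its longest transcript, 6737 bases. With the longest transcript as the length, LAMB1 held 56.7% in SW480 dnLEF1 and 29.7% in SW480 GFP, and 40.1% in SW620 dnLEF1 and 25.9% in SW620 GFP. The order of LAMB1 and LAMB3 in SW620 dnLEF1 turned with that choice, since LAMB3 then held 37.2%. So did the order of LAMB1 and LAMB2 in SW480 dnLEF1 and in both SW620 groups. Per kb of union exon LAMB2 held 27.8% in SW620 dnLEF1 and 22.7% in SW620 GFP. With the longest transcript it held 22.8% and 20.8% in these groups.

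**Figure D3:**
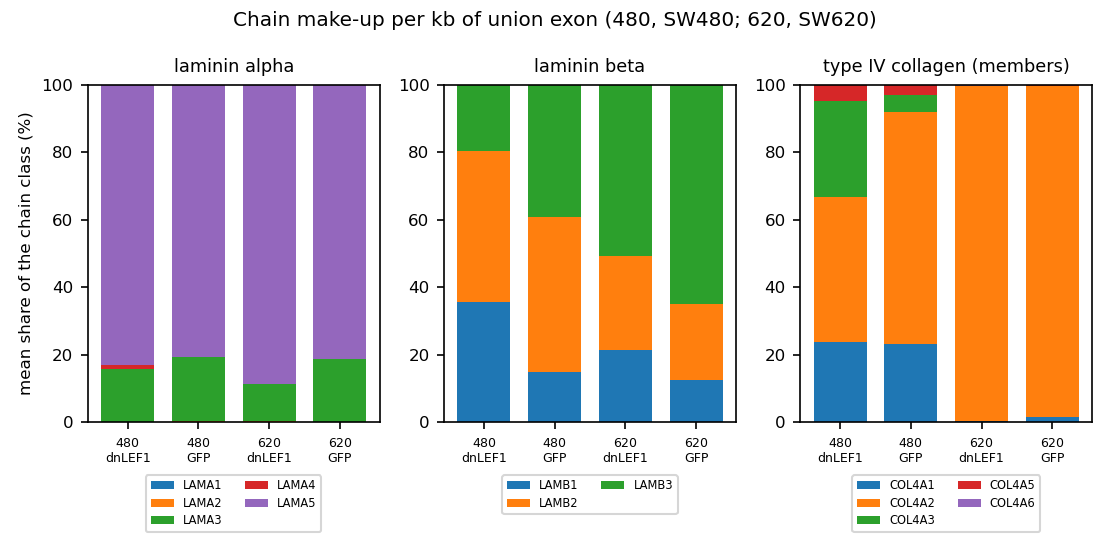
Mean share of each chain in the summed CPM per kb of union exon of its class, in percent, for laminin alpha and beta chains and for the type IV collagen chains among the members, in each group. The LAMB1 segment is taller and the LAMB3 segment shorter in dnLEF1 than in GFP in both lines, and COL4A2 fills nearly the whole type IV column in SW620.

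Among the other basement membrane components, AGRN, HSPG2 and NID1 were well expressed and NID2 was not. AGRN (agrin, a heparan sulphate proteoglycan) was at 349, 401, 378 and 367 CPM in SW480 dnLEF1, against 275, 268, 269 and 266 CPM in SW480 GFP. All dnLEF1 libraries were higher, and the log2 fold change was 0.48 ± 0.06 (edgeR adjusted p = 1.89e-05). Of the 21 nearest measured genes, 18 were also higher in SW480 dnLEF1, with a median of 0.39, and their part in the AGRN value was not tested. In SW620, AGRN was at 143 ± 7.19 CPM in dnLEF1 and 139 ± 13.5 CPM in GFP, and the effect differed from that in SW480 by -0.43 ± 0.09 (edgeR adjusted p = 0.00144).

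HSPG2 (perlecan) was at 51.1, 69.5, 76.8 and 57.6 CPM in SW480 dnLEF1 and at 49.1, 44.4, 46.9 and 51.4 CPM in SW480 GFP. One dnLEF1 library fell within the GFP range, and HSPG2 was called higher by 0.41 ± 0.11 (edgeR adjusted p = 0.00524). Of its annotated exon bases, 11.7% overlap LDLRAD2 on the opposite strand. In SW620, HSPG2 was at 125 ± 7.47 CPM in dnLEF1 and 125 ± 5.64 CPM in GFP, and the line difference was -0.41 ± 0.13 (edgeR adjusted p = 0.0215). NID1 (nidogen, which ties laminin to type IV collagen) was at 32.3 ± 3.18 CPM in SW480 dnLEF1 and 28.7 ± 2.43 CPM in SW480 GFP, and at 63.9 ± 4.98 CPM in SW620 dnLEF1 and 69.4 ± 5.03 CPM in SW620 GFP. It was called in neither line, except in SW480 without dnLEF1 replicate 1 (adjusted p = 0.0425). NID2, its relative, had 3 counts in SW480 dnLEF1 and 14 in SW480 GFP, a ratio of 4.73 lower (95% exact Poisson interval 1.32 to 25.7).

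Of the 4 type IV collagen members tested in SW480, COL4A2 was called lower and COL4A3 higher, and COL4A1 and COL4A5 were not called. COL4A2, which with COL4A1 makes the network present in nearly all basement membranes, was at 11.2, 9.48, 12.3 and 12.9 CPM in SW480 dnLEF1, against 27.1, 28.8, 30.0 and 28.5 CPM in SW480 GFP. The groups were far apart, and COL4A2 fell 2.49-fold, a log2 fold change of -1.32 ± 0.10 (edgeR adjusted p = 6.44e-08). COL4A1 was at 2.23, 6.43, 5.68 and 5.70 CPM in SW480 dnLEF1 and at 6.48, 8.31, 6.47 and 8.25 CPM in SW480 GFP. Its groups did not overlap, but the log2 fold change of -0.55 ± 0.23 missed the threshold (edgeR adjusted p = 0.0618), and it was called in 6 of 14 alternatives, with adjusted p from 0.0215 to 0.148. Of the 24 genes nearest to either, 20 were lower in SW480 dnLEF1, with a median of -0.39, and their part was not tested.

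COL4A1 and COL4A2 lie head to head on chromosome 13, and the shared start region is shown because the genes begin so close together. In RefSeq on GRCh38.p14 the COL4A1 start at 110307157 on the minus strand and the COL4A2 start at 110307284 on the plus strand are separated by 126 bases, of which 80.2% are G or C. The COL4A2 window is chr13:110307034-110307333, plus strand, with the bases between the starts in capitals.
COL4A2: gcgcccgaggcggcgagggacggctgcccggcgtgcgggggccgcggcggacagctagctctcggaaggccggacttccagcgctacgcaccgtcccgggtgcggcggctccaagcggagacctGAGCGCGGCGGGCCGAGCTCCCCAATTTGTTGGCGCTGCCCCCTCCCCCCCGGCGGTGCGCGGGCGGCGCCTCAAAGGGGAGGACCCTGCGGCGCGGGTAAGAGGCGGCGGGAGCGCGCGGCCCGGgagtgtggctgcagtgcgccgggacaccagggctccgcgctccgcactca

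COL4A1 and COL4A2 differed between the lines by unlike amounts. COL4A2 was at 14.9, 15.5, 13.6 and 13.4 CPM in SW620 dnLEF1 and at 18.0, 15.8, 13.8 and 16.4 CPM in SW620 GFP, overlapping groups with no call. COL4A1 had 4 counts in SW620 dnLEF1 and 15 in SW620 GFP. Between the GFP libraries, COL4A1 was lower in SW620 than in SW480 by a log2 fold change of -5.34 ± 0.27, and COL4A2 by -0.85 ± 0.08 (edgeR adjusted p = 1.55e-10 and 3.70e-07). COL4A1 passed the filter of this comparison only through SW480 GFP and so had to differ, and its adjusted p is description only. The dnLEF1 effect on COL4A2 was 1.16 ± 0.14 higher in SW620 than in SW480 (edgeR adjusted p = 1.60e-06).

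COL4A3, a chain of the specialised type IV network of kidney and lung, was at 3.59, 5.21, 6.19 and 4.54 CPM in SW480 dnLEF1, against 1.03, 1.56, 1.19 and 1.37 CPM in SW480 GFP. Every dnLEF1 library was above every GFP library, with a log2 fold change of 1.93 ± 0.21 (edgeR adjusted p = 3.08e-06). COL4A4, its partner chain and not one of the 45, was at 4.55 ± 1.42 CPM in SW480 dnLEF1 and 2.72 ± 0.217 CPM in SW480 GFP (log2 fold change 0.74 ± 0.21, edgeR adjusted p = 0.00834). COL4A3 had no count in SW620. COL4A5, the third chain of that network, was at 0.817 ± 0.132 CPM in SW480 dnLEF1 and 0.781 ± 0.261 CPM in SW480 GFP, and COL4A6 had at most 3 counts in any group. Over the 5 member chains, COL4A3 made up 28.2% ± 3.06 of type IV CPM per kb in SW480 dnLEF1 and 4.82% ± 0.652 in SW480 GFP. With the longest transcript as the length these shares were 18.4% ± 2.45 and 2.73% ± 0.388. COL4A2 made up 99.0% ± 0.945 in SW620 dnLEF1 and 98.2% ± 1.22 in SW620 GFP.

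COL7A1, the collagen of the anchoring fibrils beneath the epithelium, was at 36.7, 49.1, 53.9 and 50.9 CPM in SW480 dnLEF1, against 16, 11.4, 16.8 and 17.3 CPM in SW480 GFP. The groups were well separated, and COL7A1 rose 3.11-fold, a log2 fold change of 1.63 ± 0.13 (edgeR adjusted p = 2.02e-07). In SW620, COL7A1 was at 24.0, 31.4, 29.5 and 33.4 CPM in dnLEF1 and 20.9, 21.5, 23.4 and 30.6 CPM in GFP, which overlapped and gave no call (0.29 ± 0.12, edgeR adjusted p = 0.199). COL7A1 was called higher in SW620 with the replicate block (adjusted p = 0.0126) and without GFP replicate 4 (adjusted p = 0.0253). The line difference was -1.34 ± 0.20 (edgeR adjusted p = 3.57e-05). COL17A1, the transmembrane collagen of hemidesmosomes, was at 1.62, 1.02, 1.22 and 0.787 CPM in SW480 dnLEF1, against 0.158, 0.0447, 0.0952 and 0.319 CPM in SW480 GFP. It was scarce yet separated, at 107 counts against 14, with a log2 fold change of 2.87 ± 0.42 (edgeR adjusted p = 7.07e-05). COL17A1 passed the filter only through dnLEF1.

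COL18A1, the basement membrane collagen from which endostatin is cut, was among the 2 most abundant members per kb of union exon in every group. It was at 194 ± 10.5 CPM in SW480 dnLEF1 and 215 ± 7.42 CPM in SW480 GFP, and at 253 ± 12.8 CPM in SW620 dnLEF1 and 235 ± 14 CPM in SW620 GFP. It was called in neither line, at -0.15 ± 0.06 and 0.11 ± 0.06 on the log2 scale, and the difference between those effects was called, at 0.26 ± 0.08 (edgeR adjusted p = 0.0253). In SW480, COL18A1 was called lower with DESeq2 and in the fit of all 16 libraries, with adjusted p from 0.0407 to 0.159 over 14 alternatives. The line difference was not called without SW480 dnLEF1 replicate 4 or SW620 GFP replicate 2, at adjusted p up to 0.0635, and 18.5% of its exon bases overlap SLC19A1 on the opposite strand.

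The fibrillar, fibril-associated and beaded-filament collagens were scarce apart from COL6A1. COL6A1, a chain of the beaded filaments at the edge of basement membranes, was at 49.6, 53.5, 52.7 and 49.6 CPM in SW480 dnLEF1, against 45, 45.9, 43.6 and 40.4 CPM in SW480 GFP. In SW620, it was at 30.3, 32.6, 33.1 and 36.2 CPM in dnLEF1 and 26.8, 21.8, 20.9 and 22.6 CPM in GFP. The dnLEF1 libraries were higher without overlap in both lines, by 0.23 ± 0.07 in SW480 and 0.52 ± 0.09 in SW620 (edgeR adjusted p = 0.00945 and 0.00129). COL6A2, a partner chain, was at 1.16 to 1.82 CPM in SW480 dnLEF1, 1.03 to 1.37 in SW480 GFP, 1.30 to 2.15 in SW620 dnLEF1 and 1.59 to 2.14 in SW620 GFP, with no call.

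COL6A3, the third chain, was at 1.62, 1.02, 0.673 and 0.741 CPM in SW480 dnLEF1, against 2.73, 1.52, 1.38 and 1.78 CPM in SW480 GFP. Those ranges overlapped, and COL6A3 was called lower (log2 fold change -0.88 ± 0.30, edgeR adjusted p = 0.0274). The call was lost without SW480 GFP replicate 1 or without dnLEF1 replicate 2, 3 or 4, at adjusted p up to 0.104. In SW620, COL6A3 had 19 counts in dnLEF1 and 14 in GFP.

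COL5A1, a chain of the collagen that nucleates fibrils, was at 1.31, 1.52, 1.77 and 1.20 CPM in SW480 dnLEF1, against 0.237, 0.447, 0.381 and 0.547 CPM in SW480 GFP. COL12A1, which lies along collagen fibrils, was at 1.57, 1.48, 1.89 and 1.34 CPM in SW480 dnLEF1, against 0.395, 0.224, 0.143 and 0.0456 CPM in SW480 GFP. Neither overlapped between the groups, and the log2 fold changes were 1.86 ± 0.28 and 2.89 ± 0.37 (edgeR adjusted p = 9.06e-05 and 1.66e-05). Each passed the filter only through dnLEF1. In SW620, COL5A1 had 2 counts in dnLEF1 and 0 in GFP and COL12A1 had 5 in dnLEF1 and 1 in GFP. COL5A2, the partner of COL5A1, was at group means of 0.376 to 0.480 CPM and was not called where tested. COL1A1, a marker on the fibroblast list and not a member, moved with them in SW480, at 28.1 ± 9.88 CPM in dnLEF1 and 4.84 ± 0.765 CPM in GFP, while DCN had no count there and COL1A2 and COL3A1 averaged below 0.1 CPM. PDGFRB, another marker on that list, was called lower in SW480.

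TNC (tenascin-C, a matricellular glycoprotein of wound and tumour stroma) had the highest level per kb of the members in both SW620 groups. TNC was at 164, 170, 150 and 94.2 CPM in SW480 dnLEF1, against 24.3, 8.81, 10.1 and 7.07 CPM in SW480 GFP. The groups were well apart, although dnLEF1 replicate 4 and GFP replicate 1 each stood nearer to the other group than their fellows did. TNC rose 11.4-fold, a log2 fold change of 3.51 ± 0.31 (edgeR adjusted p = 3.65e-07), and its neighbours had a median of 0.16.

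In SW620, TNC was at 737, 696, 812 and 748 CPM in dnLEF1, against 554, 579, 547 and 484 CPM in GFP. All dnLEF1 libraries were higher, by 0.47 ± 0.07 on the log2 scale (edgeR adjusted p = 0.000403). The SW620 call was lost in the fit of all 16 libraries, at adjusted p = 0.256, where the spread of the SW480 libraries enters. The line difference was -3.04 ± 0.33 (edgeR adjusted p = 5.88e-07). Between the GFP libraries, TNC was 42.3-fold higher in SW620 than in SW480 (log2 fold change 5.40 ± 0.28, edgeR adjusted p = 2.81e-10).

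**Figure D4:**
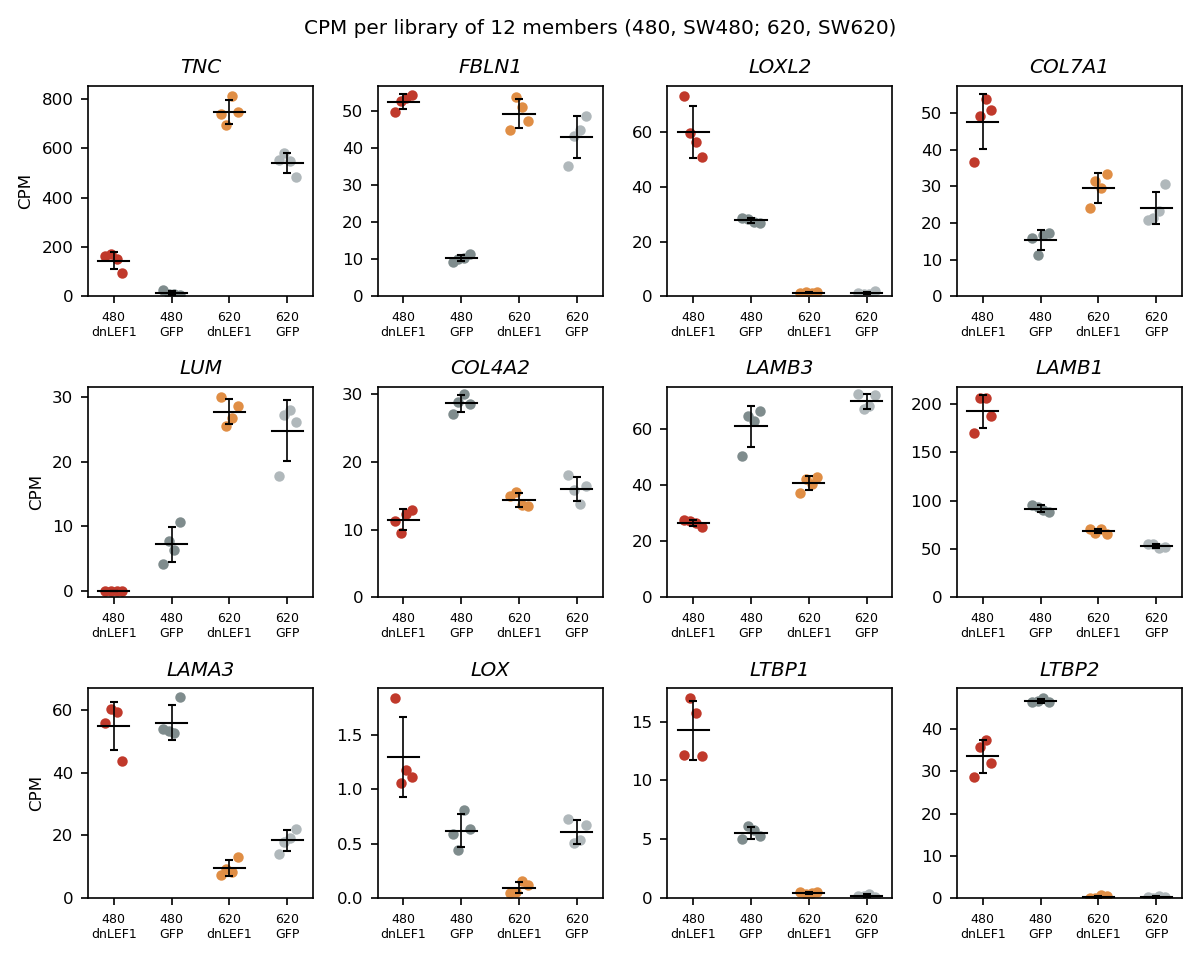
CPM in each library (points), with the group mean (long bar) and SD (whiskers), for 12 members, each panel on its own linear axis with dnLEF1 left of GFP in each line. TNC, FBLN1, LOXL2, COL7A1 and LAMB1 are higher in SW480 dnLEF1 than in SW480 GFP, LUM is at 0 there, and LOX lies above GFP in SW480 dnLEF1 and below GFP in SW620 dnLEF1.

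FN1 (fibronectin, the main adhesive glycoprotein of interstitial matrix) was not called in SW480, at 128, 197, 177 and 138 CPM in dnLEF1 and 160, 171, 154 and 157 CPM in GFP. In SW620, FN1 was at 40.7, 42.0, 48.7 and 26.7 CPM in dnLEF1 and at 24.0, 31.9, 31.8 and 17.6 CPM in GFP. Those groups overlapped, and the log2 fold change of 0.59 ± 0.18 was not called (edgeR adjusted p = 0.0705). FN1 was called higher with replicate number as a block (adjusted p = 7.59e-06), without the filter, in the fit of all 16 libraries and without dnLEF1 replicate 4, with a highest adjusted p of 0.186 over 14 alternatives.

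SPARC, a matricellular collagen-binding protein, was at 3.81, 3.72, 3.41 and 4.03 CPM in SW480 dnLEF1, against 1.94, 2.06, 2.00 and 1.60 CPM in SW480 GFP. It was higher in every dnLEF1 library, by 0.98 ± 0.16 (edgeR adjusted p = 0.000163), and had 0 and 2 counts in SW620 dnLEF1 and SW620 GFP. MATN2 (matrilin, an adaptor of filament networks) was at 9.27, 9.73, 10.6 and 10.2 CPM in SW480 dnLEF1 and at 5.73, 9.39, 8.05 and 8.39 CPM in SW480 GFP. These overlapped, and its call (0.34 ± 0.14, edgeR adjusted p = 0.0495) was lost in 7 of 14 alternatives, at adjusted p up to 0.114. Those were the fit of all 16 libraries and leaving out GFP replicate 1, 3 or 4 or dnLEF1 replicate 2, 3 or 4 of SW480. MATN2 averaged 0.634 ± 0.269 CPM in SW620 dnLEF1 and 0.639 ± 0.19 CPM in SW620 GFP. MATN3, its cartilage relative, was not called in either line, at group means of 0.437 to 4.50 CPM. TNXB and THBS2, a tenascin and a thrombospondin, were below the filter in both lines, TNXB at group means of 0.199 to 0.478 CPM and THBS2 at no more than 3 counts in a group. TNXB has a partial pseudogene copy, so its counts are uncertain.

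FBLN1 (fibulin, a glycoprotein of elastic fibres and basement membranes) was at 49.9, 52.7, 53.6 and 54.3 CPM in SW480 dnLEF1, against 9.36, 10.2, 10.4 and 11.4 CPM in SW480 GFP. The libraries of each group were close together and the groups far apart, and FBLN1 rose 5.10-fold (log2 fold change 2.35 ± 0.08, edgeR adjusted p = 1.91e-11). In SW620, it was at 45, 53.9, 51.1 and 47.3 CPM in dnLEF1 and at 35.2, 43.3, 44.8 and 48.8 CPM in GFP, overlapping groups with no call (0.20 ± 0.09, edgeR adjusted p = 0.26). The SW480 dnLEF1 libraries lay within 45 to 54.3 CPM together with the SW620 dnLEF1 libraries. The line difference was -2.15 ± 0.13 (edgeR adjusted p = 4.22e-11).

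LTBP1 and LTBP2, which tether growth factors or bind fibrillin microfibrils, moved apart in SW480. LTBP1 was at 12.2, 17.0, 15.7 and 12.1 CPM in SW480 dnLEF1, against 5.02, 6.12, 5.76 and 5.29 CPM in SW480 GFP, and rose without overlap by 1.36 ± 0.13 (edgeR adjusted p = 1.05e-06). LTBP2 was at 28.7, 35.8, 37.5 and 32.0 CPM in SW480 dnLEF1, against 46.3, 46.7, 47.3 and 46.4 CPM in SW480 GFP, and fell without overlap, with a log2 fold change of -0.48 ± 0.08 (edgeR adjusted p = 0.000247). In SW620 both averaged below 0.5 CPM. FBN2, a fibrillin of developing microfibrils, was below the filter, with 1 count in SW480 dnLEF1 and 69 in SW480 GFP, a ratio of 69.9 lower (95% exact Poisson interval 12.1 to 2801). FBN1, the main fibrillin, had group means of 0.110 to 0.466 CPM, and EFEMP1, a fibulin, had at most 3 counts in a group.

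LUM (lumican, a small leucine-rich proteoglycan of collagen fibrils) had no count in any SW480 dnLEF1 library, against 4.15, 7.73, 6.33 and 10.6 CPM in SW480 GFP. Set against a floor of 3 counts over the 4 dnLEF1 libraries, LUM was at least 217-fold lower, at 0 counts in dnLEF1 and 643 in GFP (edgeR adjusted p = 3.11e-07). LUM passed the SW480 filter only through GFP. In SW620 it was at 30.1, 25.6, 26.8 and 28.6 CPM in dnLEF1, against 17.8, 27.3, 28 and 26.2 CPM in GFP. There the groups overlapped and LUM was not called (0.16 ± 0.12, edgeR adjusted p = 0.514). The line difference was called (edgeR adjusted p = 1.05e-08), and its fitted size depends on the prior count. The other proteoglycans, SPOCK1 (testican) and VCAN (versican), were below the filter, with at most 23 counts in a group.

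The cross-linking enzymes LOX and LOXL2, which oxidise lysines of collagen and elastin, were both higher in SW480 dnLEF1. LOXL2 was at 73.4, 59.8, 56.6 and 50.9 CPM in SW480 dnLEF1, against 28.8, 28.5, 27.3 and 26.8 CPM in SW480 GFP. All dnLEF1 libraries were higher, by 1.11 ± 0.10 (edgeR adjusted p = 4.12e-07). LOXL2 averaged 1.30 ± 0.187 CPM in SW620 dnLEF1 and 1.25 ± 0.431 CPM in SW620 GFP, and the line difference was -1.09 ± 0.26 (edgeR adjusted p = 0.00312).

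LOX was scarce in every group and moved in opposite directions. LOX was at 1.84, 1.06, 1.18 and 1.11 CPM in SW480 dnLEF1, against 0.592, 0.447, 0.809 and 0.638 CPM in SW480 GFP. It was at 0.0495, 0.0614, 0.157 and 0.124 CPM in SW620 dnLEF1, against 0.726, 0.507, 0.532 and 0.670 CPM in SW620 GFP. Neither pair of groups overlapped, and the counts were 119 against 56 in SW480 and 9 against 52 in SW620. The log2 fold change was 1.06 ± 0.28 in SW480 and -2.49 ± 0.43 in SW620 (edgeR adjusted p = 0.00599 and 0.00198), and their difference was -3.55 ± 0.49 (adjusted p = 1.38e-05). LOX passed the SW620 filter only through GFP. Of the 24 genes nearest to LOX, 23 were lower in SW480 dnLEF1, with a median of -0.30, and their part was not tested.

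**Figure D5:**
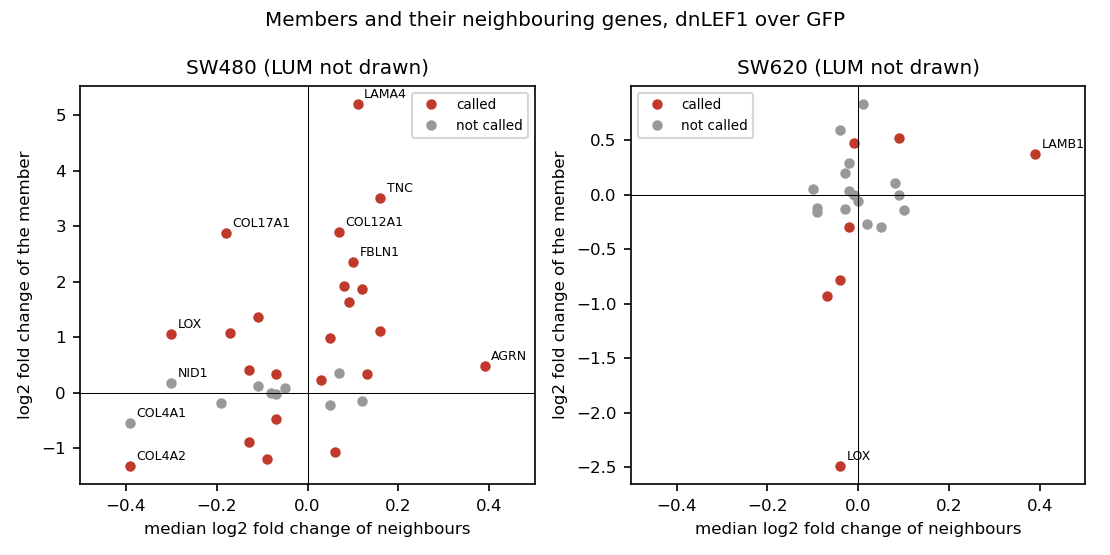
Log2 fold change of each tested member (vertical) against the median log2 fold change of the up to 24 nearest measured genes on its chromosome (horizontal), dnLEF1 over GFP, in SW480 on the left and SW620 on the right, with LUM not drawn. LAMB1 in SW620 and AGRN in SW480 lie far right near their neighbours' value, LOX in SW480 lies above 0 with neighbours at -0.30, and most other medians are within 0.2 of 0.

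The GFP libraries show how far the lines differ before dnLEF1. Of 31 members tested, 8 were higher and 20 lower in SW620 GFP than in SW480 GFP, and 78% of all 14350 genes tested were called, 37.7% as higher and 40.3% as lower. Members that passed the filter only through SW480 GFP had to be lower, so these counts describe the members and carry no test. Among them were LAMA2, COL4A1, COL4A3, COL4A5, COL6A3, SPARC, LTBP1 and LTBP2. The 8 higher were TNC, FBLN1 (log2 fold change 2.05 ± 0.10), LUM (1.79 ± 0.21), HSPG2 (1.37 ± 0.06), NID1 (1.26 ± 0.07), COL7A1 (0.64 ± 0.14), COL6A2 (0.61 ± 0.20) and LAMB3 (0.19 ± 0.08). LAMB3 had an edgeR adjusted p of 0.0355 and lost the call without SW480 GFP replicate 1 or 3 or SW620 GFP replicate 1 or 4, at adjusted p up to 0.0872. Among the 20 lower were LTBP2 (-7.23 ± 0.14), LTBP1 (-4.75 ± 0.26), LOXL2 (-4.46 ± 0.15), FN1 (-2.62 ± 0.14) and the laminin chains LAMA3, LAMA5, LAMB2 and LAMC1 (-1.41 to -1.61). These folds are relative within libraries, and fewer cells expressing a gene cannot be told apart from less RNA per cell. The comparison shares its GFP libraries with the dnLEF1 comparisons, so the members' directions in them are not independent.

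Per kb of union exon, the 5 most abundant members were AGRN, COL18A1, LAMA5, LAMC1 and TNC in SW480 dnLEF1 and COL18A1, AGRN, LAMC1, LAMA5 and LAMB2 in SW480 GFP. They were TNC, COL18A1, AGRN, NID1 and LUM in SW620 dnLEF1 and TNC, COL18A1, LAMB3, AGRN and NID1 in SW620 GFP. TNC stood at 78.0 ± 4.98 CPM per kb in SW620 dnLEF1 and 56.4 ± 4.21 in SW620 GFP, well above COL18A1 at 29.9 ± 1.52 and 27.8 ± 1.65 in the same groups. In SW480 dnLEF1, AGRN led at 34.8 ± 2.03 CPM per kb, and in SW480 GFP AGRN at 25.1 ± 0.344 and COL18A1 at 25.4 ± 0.876 were within their spread. With the longest transcript as the length, AGRN led in both SW480 groups and TNC in both SW620 groups. The 5 most abundant members changed with that length in every group except SW480 GFP. LAMB1 and FBLN1 took the places of LAMC1 and TNC in SW480 dnLEF1. FBLN1 took that of LUM in SW620 dnLEF1 and that of NID1 in SW620 GFP. Summed over all 45 members, CPM came to 2066 ± 190 in SW480 dnLEF1 and 1643 ± 9.56 in SW480 GFP, and to 1808 ± 61.6 in SW620 dnLEF1 and 1586 ± 39.8 in SW620 GFP. These sums are not per length, and abundant members weigh most in them. TNC alone was at 145 ± 34.5 CPM in SW480 dnLEF1 and 12.6 ± 7.92 in SW480 GFP. It was at 748 ± 47.8 CPM in SW620 dnLEF1 and 541 ± 40.4 in SW620 GFP.

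Of 85 other core matrix genes, 40 were tested in SW480, with 16 called higher and 11 lower, and 33 in SW620, with 8 higher and 5 lower. That is 67.5% called in SW480 and 39.4% in SW620, beside 48.5% and 8.46% of all genes tested. Here too, genes that passed the filter only through the group in which they were high had to differ, such as SRPX2 and SPON2 in SW480. These shares therefore describe the list and carry no test, and the same holds for the lists that follow. NTN4 (netrin, a laminin-related protein) averaged 18.3 ± 1.75 CPM in SW480 dnLEF1 and 1.49 ± 0.206 CPM in SW480 GFP, a log2 fold change of 3.61 ± 0.13 (edgeR adjusted p = 3.93e-11). SRPX2 had 1072 counts in SW480 dnLEF1 and 7 in SW480 GFP, and EFEMP2 (a fibulin) rose by 1.54 ± 0.11 there. NPNT (nephronectin, an integrin ligand), FRAS1 (a basement membrane protein) and SPON2 were lower, with log2 fold changes of -2.06 ± 0.19 for NPNT and -1.30 ± 0.10 for FRAS1, while SPON2 had 1 count in dnLEF1 and 109 in GFP. In SW620, MFAP2 (a microfibril protein, 0.97 ± 0.09), COL8A1 (a network collagen, 1.22 ± 0.15) and THBS1 (a thrombospondin, 0.86 ± 0.11) were the higher ones with the smallest adjusted p. COL1A1 (-1.13 ± 0.18) and COMP (-1.92 ± 0.38) were among the lower ones. MFAP2 was lower in SW480 (-0.90 ± 0.10) and COL1A1 higher there (2.54 ± 0.24), and the line difference was called for both (edgeR adjusted p = 1.05e-09 and 7.58e-08).

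Of 48 matrix assembly and modifying enzymes, 45 were tested in SW480, with 16 higher and 13 lower, and 42 in SW620, with 3 higher and 2 lower. The 64.4% called in SW480 stands beside 48.5% of all genes tested, and the 11.9% called in SW620 is near the 8.46% of all genes. PLOD2, a collagen lysyl hydroxylase, was lower in both lines, at -1.73 ± 0.12 in SW480 and -0.62 ± 0.13 in SW620 (edgeR adjusted p = 3.37e-08 and 0.00743). NDST1, which sulphates heparan sulphate chains, was higher in both, at 0.80 ± 0.07 and 0.27 ± 0.07 (adjusted p = 3.81e-07 and 0.0192). In SW480, EXT1 (1.37 ± 0.08), which polymerises heparan sulphate, and the prolyl hydroxylase P3H3 (1.04 ± 0.09) rose and the sulphotransferase HS6ST1 (-0.70 ± 0.07) fell. TLL1, a procollagen-processing protease, had no count in SW480 dnLEF1 and 486 in SW480 GFP, at least 164-fold lower. TLL1 passed the SW480 filter only through GFP. In SW620, LARGE (0.69 ± 0.11), a dystroglycan glycosyltransferase, and PLOD3 (0.38 ± 0.07), another lysyl hydroxylase, rose, and the peroxidase PXDN, which cross-links type IV collagen, fell (-0.52 ± 0.15). PXDN was higher in SW480 dnLEF1, at 3.46 ± 0.37, and its line difference was -3.98 ± 0.39 (edgeR adjusted p = 1.25e-07).

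Of 26 basement membrane receptors, 19 were tested in each line, with 7 higher and 6 lower in SW480 and 1 higher and 1 lower in SW620. These are 68.4% in SW480 and 10.5% in SW620, against 48.5% and 8.46% of all genes tested, so the SW620 share is near the background. The laminin receptor BCAM (1.03 ± 0.08) and the heparan sulphate carriers GPC4 (0.64 ± 0.08) and SDC4 (0.49 ± 0.07) rose in SW480. The collagen-binding integrin chain ITGA1 fell to 11.9 ± 1.38 CPM in SW480 dnLEF1, against 124 ± 18.5 CPM in SW480 GFP (log2 fold change -3.38 ± 0.12, edgeR adjusted p = 2.19e-11). SDC3 (-0.75 ± 0.06) and the hemidesmosome integrin ITGB4 (-0.69 ± 0.08) also fell in SW480. In SW620 the collagen-binding ITGA2 rose (0.74 ± 0.10) and dystroglycan, DAG1, fell (-0.23 ± 0.05), with edgeR adjusted p of 0.000332 and 0.0157.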

How the data were processed

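The authors deposited 1 file of raw gene counts, not normalized, for each of 16 libraries. The submitters' processing notes name Trimmomatic, TopHat2, HTSeq and DESeq2, and hg38 as the build. Their versions, the annotation and the strandedness of counting were not given in the sources used here, so opposite-strand genes that overlap cannot be told apart. Lines that name no gene, 5 per file and 20% to 50.5% of the reads of a library, were left out.

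The test was edgeR 4.0.16 under R 4.3.3, on TMM-scaled libraries after filterByExpr, by quasi-likelihood, with Benjamini-Hochberg adjusted p below 0.05 over all genes tested. Each comparison used its own 8 libraries, and the line difference all 16. A standard error is |log2 fold change| / sqrt(F). CPM were computed on 1 TMM scale over all 16 libraries. Lengths and positions came from GENCODE 44, which placed 86.6% of symbols. Floors (3 counts over a group) and 95% intervals cover counting error only. The fits were also run on simulated data with known changes. Those libraries were drawn independently, so that run cannot show how calls behave if libraries are related. Alternatives were RLE scaling, no filter, DESeq2 1.42.0, limma 3.58.1 voom, a fit of all libraries, a replicate block, leaving out each library, and the longest transcript as length.

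Members called in a dnLEF1 comparison with a mean of at least 1 CPM in a group are given in every library, the others by ranges. Outside them, up to 3 called genes each way with the smallest adjusted p per list and line are named, with LEF1 and AXIN2. COL4A4, COL1A1 and marker genes are also named beside results, chosen after their values were seen. A gene that this rule would also name is not reported here. The members and lists were chosen with earlier results of these data known.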

Additional observations from a re-analysis of the deposited data

Results flagged for a closer look

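In 2 of 112 sets of 4 libraries with a mean count of at least 10, 1 library stood apart from the other 3, and chance alone flags about 1 set in 20. LAMA3 was at 64.1 CPM in SW480 GFP replicate 4 and at 52.5 to 53.8 CPM in the others. LOX was at 1.84 CPM in SW480 dnLEF1 replicate 1 and at 1.06 to 1.18 CPM in the others.

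The dnLEF1 effect differed between the lines, by the interaction test, for 14 members. On the log2 scale, SW620 minus SW480, it was lower in SW620 for LOX (-3.55), TNC (-3.04), FBLN1 (-2.15), COL7A1 (-1.34), LOXL2 (-1.09), LAMA3 (-0.91), LAMB1 (-0.70), AGRN (-0.43), HSPG2 (-0.41) and LAMA5 (-0.39). It was higher in SW620 for COL4A2 (1.16), LAMB3 (0.41), COL18A1 (0.26) and LUM, whose fitted 10.47 depends on the prior count because a group had no count. The LAMA5 difference was lost in 8 of 21 alternatives, each of which left out 1 library, at adjusted p up to 0.0735.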

How the results depend on the processing

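Every count of members called kept within 1.5 times its value under all alternatives run, except that with the replicate block 5 members were called higher in SW620, against 3 without it (COL7A1 and FN1 were added). Deviations of same-numbered libraries correlated at 0.316, -0.0811, -0.218 and -0.0639 in SW480 and at 0.521, -0.0666, 0.4 and 0.361 in SW620. In SW620 3 of 4 pairs thus exceeded 0.1, but replicate 2 did not and its dnLEF1 library correlated best with another number (0.202), so the numbers were not taken to pair the samples. Besides those additions, the block added LAMB2 and COL4A1 to the lower calls in SW480 and FN1 to the higher line differences. Without 1 library at a time, 16 to 19 members were higher and 6 to 8 lower in SW480, and 3 to 4 were higher and 3 to 4 lower in SW620. Values that changed sign all belonged to members without a call. In SW480, FN1 (-0.0021) was 0.0011 with RLE scaling, 0.00024 without the filter and 0.00093 with DESeq2, and -0.11 to 0.09 without 1 library. Without 1 library, LAMA3 ran from -0.07 to 0.07, COL4A5 from -0.04 to 0.32 and MATN3 from -0.03 to 0.29. In SW620, MATN2 (0.00012) was -0.01 with RLE scaling and DESeq2, -0.0028 without the filter, -0.08 with voom and -0.02 with the block, and -0.21 to 0.26 without 1 library. There HSPG2 ran from -0.05 to 0.02, COL5A2 from -0.94 to 0.08 and LOXL2 from -0.10 to 0.28 without 1 library. Between GFP lines, COL5A2 ran from -0.13 to 0.43 and LOX from -0.15 to 0.12. The causes were not tested. Low counts limit the members under about 1 CPM, and 11 members in SW480 and 21 in SW620 could not be tested.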
